A study of Rattus norvegicus with 16 samples.

Results

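The MAP kinase phosphatases are the dual-specificity phosphatases that bind MAP kinases directly, and 10 of them (Dusp1, Dusp2, Dusp4, Dusp5, Dusp6, Dusp7, Dusp8, Dusp9, Dusp10 and Dusp16) were looked up by symbol among the 17055 genes counted in rat liver. All 10 were listed. The rule was family membership and used no measured value, but the members were chosen with earlier results of these data known. Liver came from 48 male Sprague-Dawley rats aged 10 weeks, 12 in each of 4 groups, and each of the 16 libraries, 4 a group, holds RNA of a pool of 3 rats. Isoflurane-Sepsis (libraries 1 to 4) and isoflurane control rats (libraries 5 to 8) had isoflurane for induction and throughout, the inspired dose starting at 1.5%. Propofol-Sepsis (libraries 9 to 12) and Propofol control rats (libraries 13 to 16) received ketamine and xylazine for induction and were then kept on a Propofol infusion. Sepsis was produced by cecal ligation and puncture, in which the cecum is tied off and perforated, while in controls the cecum was lifted out and put straight back. Every rat was ventilated with oxygen, had arterial blood drawn and had liver taken 8 h after the abdomen was opened, so the controls carry the anesthesia and the surgery too. Because induction drugs differ with the anesthetic, and the isoflurane and Propofol libraries also carry 2 different series of names in the deposited data, these differences and the anesthetic cannot be told apart.

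MAP kinases (ERK, JNK and p38) are switched on by phosphorylation of a threonine and a tyrosine in their activation loop, and the MAP kinase phosphatases remove both phosphates. Many of them are made in response to the very pathway they turn off, so their mRNA acts as negative feedback as well as a readout of signaling. By location and substrate they fall into an inducible nuclear class (Dusp1, Dusp2, Dusp4 and Dusp5), a cytosolic class that prefers ERK (Dusp6, Dusp7 and Dusp9), and a class that prefers the stress-activated kinases JNK and p38 (Dusp8, Dusp10 and Dusp16). In liver they are known as brakes on inflammatory and metabolic stress signaling.

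Levels are given as CPM, a gene's counts per 1000000 reads on genes after TMM scaling of the 16 libraries, and are compared between libraries for 1 gene at a time, never between genes. The libraries held between 14199422 and 49937173 reads on genes. All 8 hepatocyte markers, such as albumin, were present in every group, and their sums were 128625 to 146341 CPM in Isoflurane-Sepsis, 148736 to 160129 CPM in its controls, 107263 to 116979 CPM in Propofol-Sepsis and 112335 to 123913 CPM in its controls. The sums were thus higher with isoflurane in both states and lower in Isoflurane-Sepsis than in its controls, without overlap. Of the 8 markers, 3 were called lower and 1 higher in sepsis under isoflurane, and 2 lower and 1 higher under Propofol. Summed endothelial markers (8 of 8) were at 214 to 258 CPM in sepsis against 276 to 336 CPM in controls under isoflurane, with 4 of 8 called lower and 0 higher, and at 289 to 316 CPM against 342 to 365 CPM under Propofol, with 2 called lower and 2 higher. The part of either cell type in the levels below was not tested. Summed markers of neutrophils and inflammatory monocytes were 45.9, 87.5, 134.7 and 113 CPM in the 4 Isoflurane-Sepsis libraries and 22.2 to 24.9 CPM in their controls, and 46.1 to 63.2 CPM in Propofol-Sepsis and 25.5 to 35.3 CPM in Propofol controls, with all 11 of 11 markers detected in each group. In bulk liver, fewer or more cells of a type and less or more RNA per cell cannot be told apart. Library 10, of Propofol-Sepsis, stood apart with 389.5 CPM of summed brain markers against at most 28.3 CPM in any other library. In library 3, of Isoflurane-Sepsis, reads outside genes were at their highest share of 25.4%, against 21.6% at the lowest, and 6 of the 8 phosphatases that could be tested reached their highest level of that group there.

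Under isoflurane, sepsis went with higher mRNA of 4 MAP kinase phosphatases: Dusp2, and all 3 of the JNK and p38 class, Dusp8, Dusp10 and Dusp16. Under Propofol Dusp2 and Dusp8 rose and Dusp7 fell. The ERK-selective Dusp6 was not called between septic and control liver with either anesthetic and was higher under isoflurane in both states, 2.12-fold in controls and 2.27-fold in sepsis. In the separate fits of 4 libraries against 4 by the quasi-likelihood test of edgeR, 8 of the 10 members passed the limit on low counts. Of these 8, 4 were called higher and 0 lower in sepsis under isoflurane, at an adjusted p below 0.05, against 25.7% of all genes tested called higher and 24.4% called lower. The 0 lower calls were also 0 by DESeq2 and by limma-voom, and 0 members had a lower level at an unadjusted p below 0.05 in the edgeR fit. By limma-voom 5 members were at an unadjusted p below 0.05, of which 4 were called. In the edgeR fit Dusp7 lay just above that limit, on the lower side (log2 fold change -0.40, unadjusted p = 0.0550). Under Propofol 2 were called higher and 1 lower, against 20.4% and 21.7% of all genes. Dusp2 passed the limit through its septic libraries alone, so its calls add nothing to these counts, and the other 7 gave 3 higher under isoflurane and 1 higher and 1 lower under Propofol. By class, the calls under isoflurane were 1 of 3 tested nuclear members (Dusp2), 0 of 2 cytosolic ERK-selective members and 3 of 3 JNK and p38 members. The median log2 fold changes were 0.60, -0.12 and 2.13 against 0.0061 over all genes tested. Under Propofol the class medians were -0.03, -0.14 and 0.46 against -0.0016 over all genes. Dusp2 enters both nuclear medians. The other tested nuclear members, Dusp1 and Dusp5, were at 0.60 and 0.46 under isoflurane and were not called. Under Propofol Dusp1 and Dusp5 were at -0.03 and -0.37 and were not called either.

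**Figure D1:**
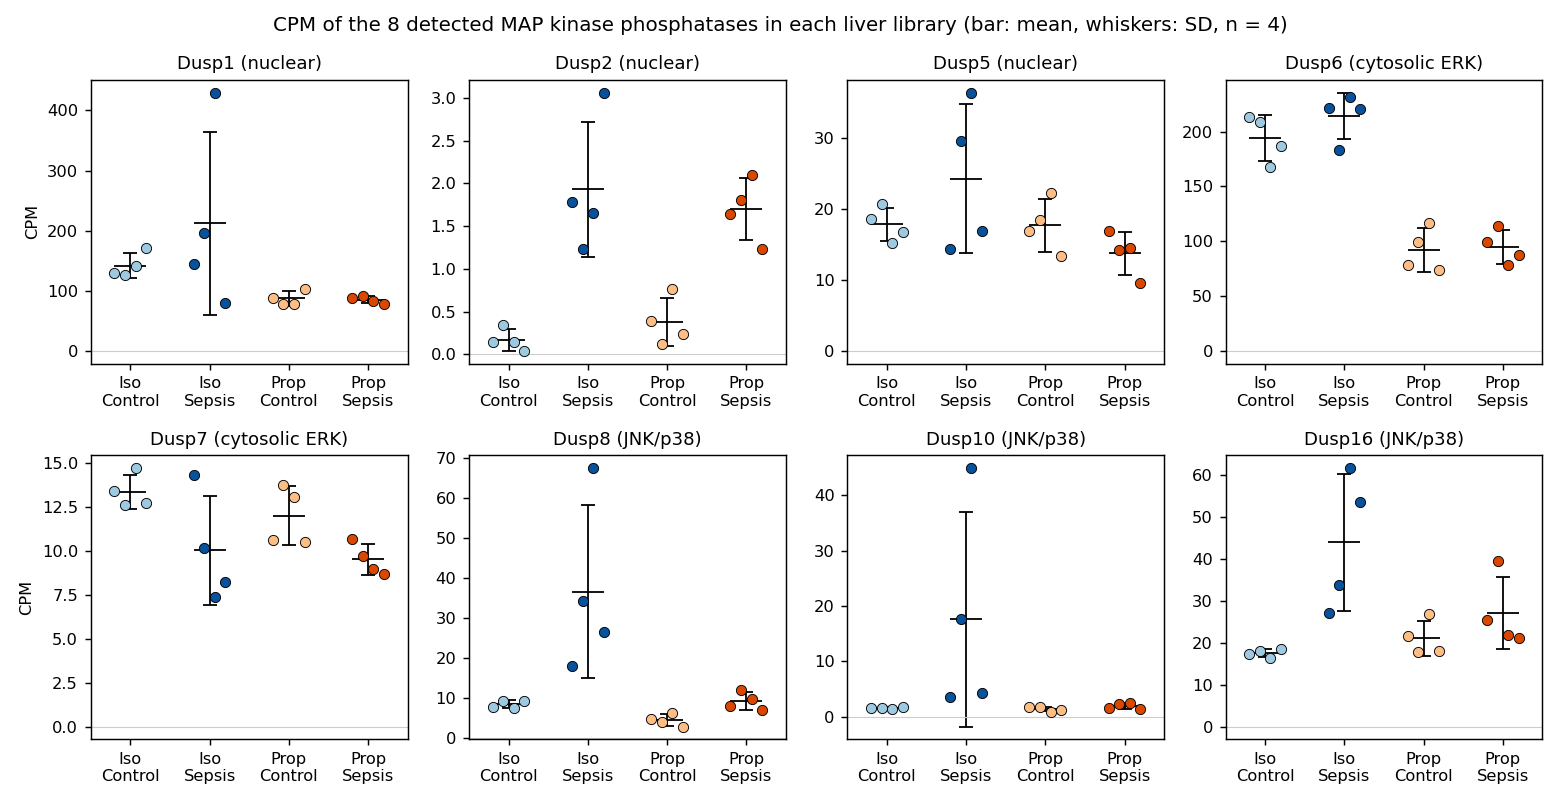
CPM (vertical axes, each starting near 0) of the 8 detected MAP kinase phosphatases in the 16 liver libraries by group; points are libraries, the bar is the mean and the whiskers are the SD of 4 libraries. Dusp8, Dusp10 and Dusp16 lie higher in all 4 Isoflurane-Sepsis libraries than in any isoflurane control, Dusp2 is higher in sepsis with both anesthetics, and Dusp6 separates by anesthetic and not by sepsis.

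Of the inducible nuclear class, Dusp2 rose with both anesthetics and Dusp1 and Dusp5 were not called with either. Dusp1, an immediate-early phosphatase that acts mostly on p38 and JNK and is also induced by glucocorticoids, was at 144, 195, 429.6 and 80.0 CPM in the 4 Isoflurane-Sepsis libraries. Its isoflurane controls were at 129, 127, 140.3 and 171 CPM, inside that range. Library 3 was 5.37 times as high as library 4, which lay below every control of its anesthetic. The log2 fold change of 0.60 ± 0.43 (SE, n = 4 against 4) was not called (adjusted p = 0.267, edgeR), and it was -0.02 without library 3. With Propofol, Dusp1 was at 87.9, 91.2, 83.2 and 78.5 CPM in sepsis. The controls were at 87.8, 78.4, 78.6 and 104 CPM, and the groups overlapped (log2 fold change -0.03 ± 0.10, adjusted p = 0.838, edgeR). In Propofol liver the means were therefore 85.2 ± 5.54 CPM in sepsis and 87.1 ± 11.8 CPM in controls (SD, n = 4), a difference well inside the spread.

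Dusp2, a nuclear phosphatase found mostly in activated immune cells, was scarce but rose in sepsis with both anesthetics. It was at 1.78, 1.23, 1.65 and 3.06 CPM in the Isoflurane-Sepsis libraries, from 36, 19, 32 and 52 reads. The isoflurane controls were at 0.141, 0.344, 0.140 and 0.0420 CPM, from 2 to 7 reads per library. All 4 septic libraries lay above all 4 controls, and the fitted rise was 13.3-fold (log2 fold change 3.73 ± 0.52, adjusted p = 0.000573, edgeR). The Propofol-Sepsis libraries were at 1.65, 1.81, 2.10 and 1.23 CPM and the Propofol controls at 0.389, 0.117, 0.767 and 0.242 CPM. These groups did not overlap either, and the rise was 4.32-fold (log2 fold change 2.11 ± 0.43, adjusted p = 0.00331, edgeR). Dusp2 passed the limit on low counts through its septic libraries, so a gene with its pattern could be tested only where it was high. Both calls held whichever library was left out, with a log2 fold change of 3.20 to 4.34 under isoflurane and 1.84 to 2.75 under Propofol. The neutrophil and monocyte markers given above also rose, with 7 of the 9 tested called higher under isoflurane and 5 of 9 under Propofol, and their part in the level of Dusp2 was not tested. Summed Kupffer cell and macrophage markers (9 of 11 listed) were 417 to 543 CPM in Isoflurane-Sepsis and 372 to 456 CPM in its controls, and 359.9 to 444 CPM in Propofol-Sepsis and 415 to 477 CPM in its controls, with 5 of 9 called higher and 1 lower under isoflurane and 1 higher and 1 lower under Propofol. Summed lymphocyte markers (11 of 12 listed, Klrb1 at 0 under isoflurane) were 14.5 to 24.1 CPM and 13.2 to 15.8 CPM under isoflurane, and 12.1 to 14.7 CPM and 14.9 to 17.0 CPM under Propofol, in sepsis and controls respectively, with 3 of 4 tested called higher under isoflurane and 0 higher and 1 lower under Propofol. The part of these cells in the level of Dusp2 was not tested either.

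Dusp4, a nuclear phosphatase with broad MAP kinase specificity, had 0 to 5 reads in each library and 27 reads in all. The groups summed to 6 reads in Isoflurane-Sepsis, 6 in isoflurane controls, 5 in Propofol-Sepsis and 10 in Propofol controls. On log2(CPM + 0.1), sepsis minus control was 0.20 under isoflurane and -0.58 under Propofol, with exact two-sided permutation p = 0.171 and 0.286, where the smallest value 4 libraries against 4 can give is 0.0286. In libraries 9 and 12 it had 0 reads, which allows up to 0.175 and 0.0934 CPM for counting error alone. A difference in Dusp4 was not detectable at this depth.

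Dusp5, a nuclear phosphatase confined to ERK, was at 14.3, 29.6, 36.5 and 16.9 CPM in Isoflurane-Sepsis. Its isoflurane controls were at 18.6, 20.7, 15.3 and 16.8 CPM. Libraries 2 and 3 were above every control and libraries 1 and 4 were not, and the log2 fold change of 0.46 ± 0.28 was not called (adjusted p = 0.196, edgeR); without library 1 it was 0.66 and called (adjusted p = 0.0408). With Propofol, Dusp5 was at 16.9, 14.2, 14.5 and 9.58 CPM in sepsis and 16.9, 18.5, 22.3 and 13.3 CPM in controls. The groups overlapped, and the log2 fold change of -0.37 ± 0.19 was not called (adjusted p = 0.143, edgeR).

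The promoter windows of this class are shown because its members are described as inducible and because these 3 differed from one another in the septic libraries. They are the 250 bases before the first listed start of each gene, 5′ to 3′ on the gene's strand, from RefSeq on build GRCr8. Any other start of a gene was not searched. Of the 10 members 9 matched, and Dusp4 is named only. Dusp1 is at chr10:17184603-17184852 (plus strand), Dusp2 at chr3:135009386-135009635 (plus strand) and Dusp5 at chr1:262543524-262543773 (plus strand). Capitals mark matches, on either strand, to any of 6 motifs: the CRE (TGACGTCA), the short CRE motif TGACG that lies inside it, AP-1 (TGACTCA or TGAGTCA), the E-box CACGTG, the SRE core and the NF-kB motif.
Dusp1: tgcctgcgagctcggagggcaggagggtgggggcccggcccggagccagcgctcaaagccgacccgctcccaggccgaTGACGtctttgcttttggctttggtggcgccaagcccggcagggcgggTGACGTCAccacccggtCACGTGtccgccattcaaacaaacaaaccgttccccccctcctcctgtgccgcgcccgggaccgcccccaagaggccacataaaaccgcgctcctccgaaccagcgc
Dusp2: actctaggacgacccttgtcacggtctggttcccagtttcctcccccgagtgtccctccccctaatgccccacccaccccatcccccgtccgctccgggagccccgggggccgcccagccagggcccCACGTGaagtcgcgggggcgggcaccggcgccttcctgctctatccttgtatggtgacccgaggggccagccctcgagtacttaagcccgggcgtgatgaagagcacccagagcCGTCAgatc
Dusp5: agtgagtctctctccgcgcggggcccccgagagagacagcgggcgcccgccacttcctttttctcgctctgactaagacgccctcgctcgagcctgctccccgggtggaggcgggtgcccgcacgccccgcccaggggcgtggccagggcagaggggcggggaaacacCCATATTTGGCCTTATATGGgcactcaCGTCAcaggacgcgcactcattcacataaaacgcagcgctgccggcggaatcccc
The window of Dusp1 held a full CRE from 124 to 117 bases before the start, a further short CRE motif 172 to 168 bases before it, and an E-box from 107 to 102. The window of Dusp5 held a pair of SRE cores next to each other, CCATATTTGG from 82 to 73 bases and CCTTATATGG from 72 to 63 bases before the start, and a short CRE motif. The window of Dusp2 held an E-box and a short CRE motif. Over all 33469 promoter windows of that length, 1.59% held a CRE, 1.497% an SRE core, 18.2% a short CRE motif, 5.59% the E-box, 4.05% AP-1 and 6.33% the NF-kB motif. These matches describe the letters and are not evidence of a bound factor.

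The cytosolic ERK-selective class held the member with the smallest adjusted p between anesthetics in both states and none that was called higher in sepsis. Dusp6, the ERK phosphatase that is itself an ERK target, was at 222, 183, 232 and 221 CPM in Isoflurane-Sepsis. Its isoflurane controls were at 214, 208, 168 and 187 CPM, and the ranges overlapped. With Propofol, Dusp6 was at 98.9, 114, 78.3 and 87.7 CPM in sepsis and at 77.9, 99.1, 117 and 74.0 CPM in controls, and again the ranges overlapped. Sepsis minus control was 0.16 ± 0.11 under isoflurane (adjusted p = 0.247) and 0.05 ± 0.16 under Propofol (adjusted p = 0.832) on the log2 scale in edgeR. The 95% intervals, -0.09 to 0.41 and -0.32 to 0.41, bound the change in either direction.

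Dusp7, a cytosolic ERK phosphatase, was at 14.3, 10.2, 7.40 and 8.25 CPM in Isoflurane-Sepsis. Its isoflurane controls were at 13.4, 12.6, 14.7 and 12.7 CPM. Libraries 2, 3 and 4 lay below every control and library 1 did not, and the log2 fold change of -0.40 ± 0.18 was not called (adjusted p = 0.0948, edgeR); without library 1 it was -0.62 and called (adjusted p = 0.00303). With Propofol, Dusp7 was at 10.7, 9.72, 8.99 and 8.69 CPM in sepsis and at 10.6, 13.8, 13.1 and 10.5 CPM in controls. It fell by 0.33 ± 0.12 on the log2 scale (adjusted p = 0.0442, edgeR), with library 9 overlapping the controls. That call was lost in the fit of all 16 libraries (adjusted p = 0.127) and without library 10, 11, 12, 14 or 15 (adjusted p of 0.0520 to 0.124). Dusp9, the third cytosolic member, had 2 reads in all, 1 in library 2 and 1 in library 10. The isoflurane and Propofol control groups had 0 reads of Dusp9, which allows up to 0.0262 and 0.0432 CPM over each group.

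The JNK and p38 class rose as a whole in sepsis under isoflurane. Dusp8, a phosphatase of JNK and p38 known best from brain and heart, was at 18.1, 34.3, 67.4 and 26.6 CPM in the Isoflurane-Sepsis libraries. The isoflurane controls were at 7.67, 9.25, 7.56 and 9.37 CPM. Each septic library was above each control, with the 4 septic libraries spread 3.73-fold among themselves, and the rise was 4.38-fold (log2 fold change 2.13 ± 0.37, adjusted p = 0.00178, edgeR). With Propofol, Dusp8 was at 8.06, 12.01, 9.85 and 7.12 CPM in sepsis and at 4.73, 4.14, 6.33 and 2.90 CPM in controls. These groups did not overlap, and the rise was 2.05-fold (log2 fold change 1.04 ± 0.24, adjusted p = 0.00720, edgeR). Library 10, which stood apart by brain markers, had the highest Dusp8 of Propofol-Sepsis, and without it the log2 fold change was 0.87 (adjusted p = 0.0113). The level of Dusp8 in Propofol-Sepsis was close to that in isoflurane controls, with means of 9.26 ± 2.15 and 8.46 ± 0.978 CPM (SD, n = 4); these groups differ in both factors and were not tested against each other.

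Dusp10, a JNK and p38 phosphatase that limits inflammatory signaling, was spread 12.9-fold among the Isoflurane-Sepsis libraries. It was at 3.47, 17.7, 44.9 and 4.24 CPM in the 4 Isoflurane-Sepsis libraries, from 70, 273, 868 and 72 reads. The isoflurane controls were at 1.60, 1.57, 1.35 and 1.68 CPM. All 4 septic libraries were above all 4 controls, although libraries 2 and 3 were far above libraries 1 and 4, and the rise was 11.4-fold (log2 fold change 3.51 ± 0.81, adjusted p = 0.00689, edgeR). The size depended on library 3, since without it the log2 fold change was 2.42 with the call kept. Dusp10 with Propofol was at 1.59, 2.29, 2.48 and 1.35 CPM in sepsis and at 1.69, 1.75, 0.911 and 1.26 CPM in controls. These ranges overlapped, and the log2 fold change of 0.46 ± 0.28 was not called (adjusted p = 0.211, edgeR), with a 95% interval of -0.17 to 1.10.

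Dusp16, a JNK-preferring phosphatase that shuttles between nucleus and cytosol, was at 27.1, 33.8, 61.7 and 53.5 CPM in Isoflurane-Sepsis. Its isoflurane controls were at 17.4, 18.1, 16.3 and 18.6 CPM and spread by less than 1 CPM in SD (17.6 ± 0.991, n = 4). No septic library reached down to the controls, and the rise was 2.54-fold (log2 fold change 1.35 ± 0.25, adjusted p = 0.00234, edgeR). With Propofol, Dusp16 was at 25.4, 39.6, 21.9 and 21.2 CPM in sepsis and at 21.5, 17.7, 26.8 and 18.1 CPM in controls. The ranges overlapped and the log2 fold change of 0.37 ± 0.22 was not called (adjusted p = 0.195, edgeR). Library 10 was again the highest, and without it the log2 fold change was 0.11.

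The windows of these 3 genes are shown because they rose together in Isoflurane-Sepsis. Dusp8 is at chr1:206612442-206612691 (minus strand), Dusp10 at chr13:98145643-98145892 (plus strand) and Dusp16 at chr4:169361509-169361758 (minus strand), on the same build and with the same motifs in capitals.
Dusp8: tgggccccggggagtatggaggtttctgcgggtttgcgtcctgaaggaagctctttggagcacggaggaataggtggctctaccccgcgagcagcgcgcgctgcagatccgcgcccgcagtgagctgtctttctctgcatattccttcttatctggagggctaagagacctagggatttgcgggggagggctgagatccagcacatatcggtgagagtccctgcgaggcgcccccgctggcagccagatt
Dusp10: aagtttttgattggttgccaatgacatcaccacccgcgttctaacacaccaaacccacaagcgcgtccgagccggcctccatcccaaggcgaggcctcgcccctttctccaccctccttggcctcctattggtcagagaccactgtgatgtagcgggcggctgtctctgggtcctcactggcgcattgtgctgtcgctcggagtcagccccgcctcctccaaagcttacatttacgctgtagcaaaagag
Dusp16: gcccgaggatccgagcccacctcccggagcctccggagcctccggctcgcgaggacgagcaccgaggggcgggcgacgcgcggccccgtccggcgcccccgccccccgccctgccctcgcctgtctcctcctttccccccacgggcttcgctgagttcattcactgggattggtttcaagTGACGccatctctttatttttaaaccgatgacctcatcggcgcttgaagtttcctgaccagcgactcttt
Of the 6 motifs, the windows of Dusp8 and Dusp10 held none and that of Dusp16 held only a short CRE motif, 70 to 66 bases before the start. These letters are therefore not shared by the 3 windows, and nothing follows about any factor.

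**Figure D2:**
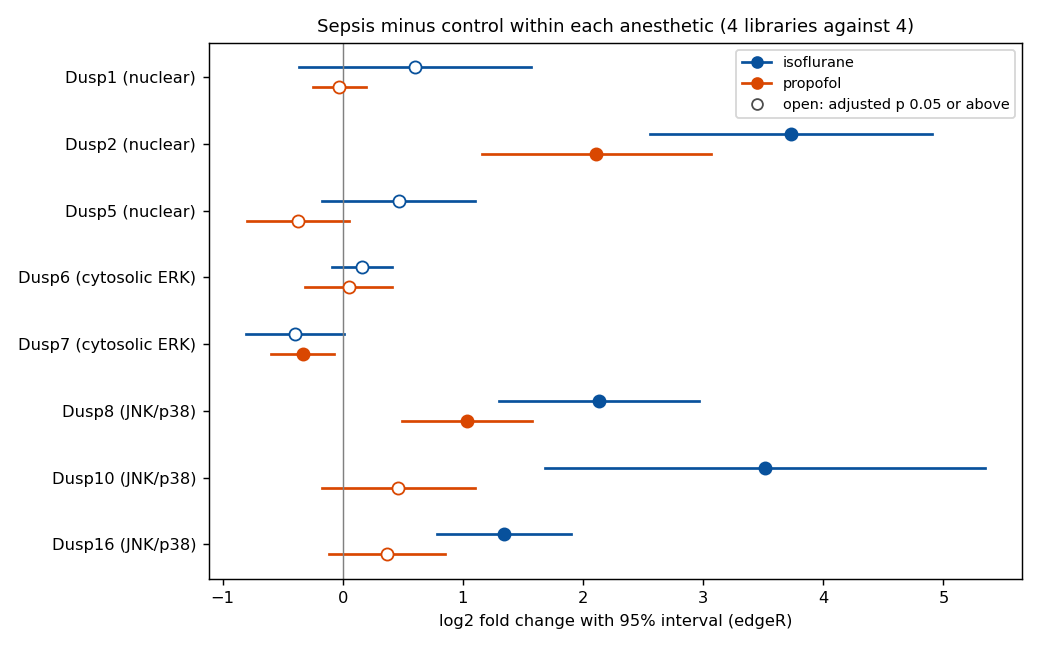
Log2 fold change of sepsis minus control (horizontal axis) with its 95% interval for the 8 tested phosphatases, isoflurane in blue and Propofol in orange, 4 libraries against 4; filled points have an adjusted p below 0.05 in edgeR. The filled isoflurane points are Dusp2, Dusp8, Dusp10 and Dusp16 and the filled Propofol points are Dusp2, Dusp7 and Dusp8.

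Looked at library by library, the response under isoflurane did not have the same make-up in every pool. Relative to the mean of its own controls, library 3 was higher by 4.77 for Dusp10, 2.98 for Dusp8, 1.81 for Dusp16, 1.60 for Dusp1 and 1.02 for Dusp5 on the log2 scale. Library 4 instead paired the highest ratio of the group for Dusp2, 3.57, with 1.60 for Dusp16 and with a Dusp1 level below controls, at -0.83. Library 1 had the lowest ratio of the group for Dusp5, Dusp8, Dusp10 and Dusp16, and its ratio for Dusp7, 0.10, was the only one above 0 for that gene among the 8 septic libraries. The neutrophil and monocyte marker sum was lowest in library 1 and highest in library 3 as well. So were summed cholangiocyte markers (23.3 and 31.4 CPM) and the share of reads outside genes (23.1% and 25.4%). Other lists had another order. Summed stellate cell and fibroblast markers were 327, 245, 272 and 525 CPM in libraries 1 to 4. Lymphocyte markers were at 15.6, 14.5, 18.2 and 24.1 CPM. Kupffer cell and macrophage markers were also highest in library 4 (543 CPM), and endothelial markers were highest in library 1 (258 CPM). Library 4 had a higher neutrophil and monocyte sum than library 2 (113 against 87.5 CPM). Its ratios were lower than those of library 2 for Dusp8 and Dusp10 and higher for Dusp16. The part of any of these in the ratios was not tested. Under Propofol the ratios ran from 1.47 to 2.20 for Dusp2, from 0.64 to 1.39 for Dusp8 and from -0.05 to 0.78 for Dusp10.

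**Figure D3:**
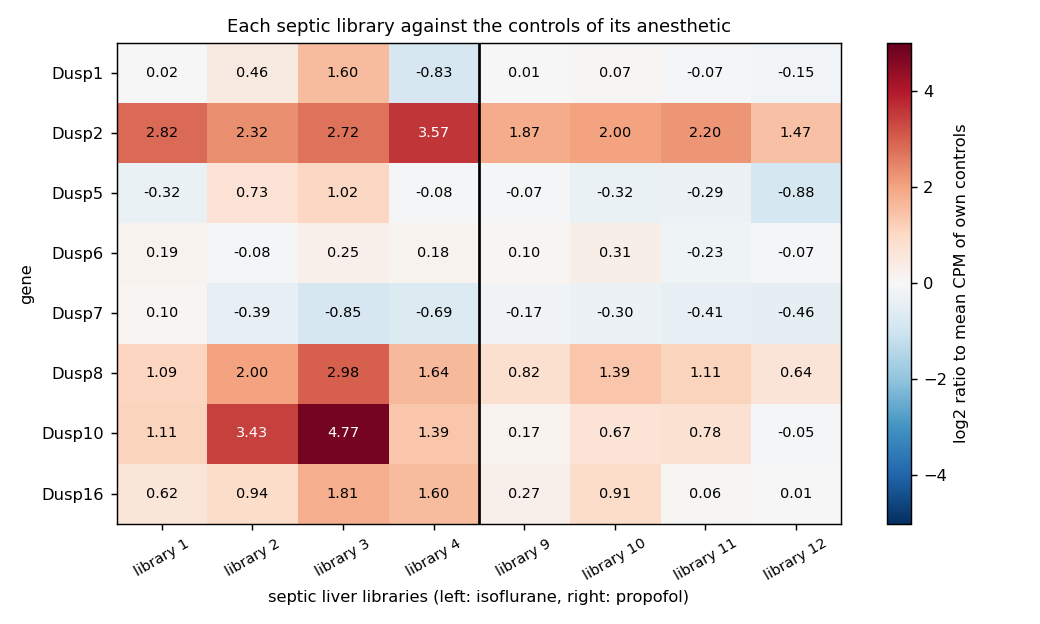
Log2 ratio (color and printed value) of each septic liver library (columns, isoflurane left and Propofol right of the line) to the mean CPM of the controls of its own anesthetic, for the 8 tested phosphatases (rows). Library 3 has 4.77 for Dusp10 and 2.98 for Dusp8, while the Propofol libraries stay between -0.05 and 0.78 for Dusp10.

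Whether the response to sepsis differed between the anesthetics was tested as an interaction over the 16 libraries, isoflurane response minus Propofol response. In edgeR 0 of the 8 members were called in either direction, where 1.66% of all genes tested were called higher and 1.06% lower. At an unadjusted p below 0.05 there were 5 members (Dusp2, Dusp5, Dusp8, Dusp10 and Dusp16), DESeq2 called 1 of 8 and limma-voom called 0, with 5 and 1 at an unadjusted p below 0.05. The shares of all genes at that unadjusted limit, or called by DESeq2 or limma-voom, were not counted. These counts are therefore not a result about the members. Each of the 5 members named had a larger fitted change under isoflurane. For Dusp2 this rests on scarce control reads, 2 to 7 per library with isoflurane and 2 to 16 with Propofol. Its mean septic levels were 1.93 CPM with isoflurane and 1.70 CPM with Propofol. Without library 15, a Propofol control, its difference of log2 fold changes was 0.93. The difference of log2 fold changes was 3.03 ± 0.96 for Dusp10 (adjusted p = 0.0863), 0.96 ± 0.35 for Dusp16 (0.121) and 1.08 ± 0.47 for Dusp8 (0.186). For Dusp5 it was 0.82 ± 0.36 (adjusted p = 0.190) and for Dusp2 it was 1.58 ± 0.76 (adjusted p = 0.215), both in edgeR. Dusp6 and Dusp7 were at 0.10 ± 0.21 and -0.07 ± 0.23, and their 95% intervals of -0.35 to 0.55 and -0.56 to 0.42 leave room for a modest difference. Whether any member was called depended on single libraries. Without library 1 there were 4 calls (Dusp5, Dusp8, Dusp10 and Dusp16, adjusted p of 0.0139 to 0.0471), without library 4 Dusp10 was called (adjusted p = 0.0456), and without library 10 Dusp16 was called (adjusted p = 0.0469). Without library 3 the difference for Dusp10 was 1.96, and no member was called. The share of all genes called in each of these fits was not counted, so the number of members called cannot be set against it.

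**Figure D4:**
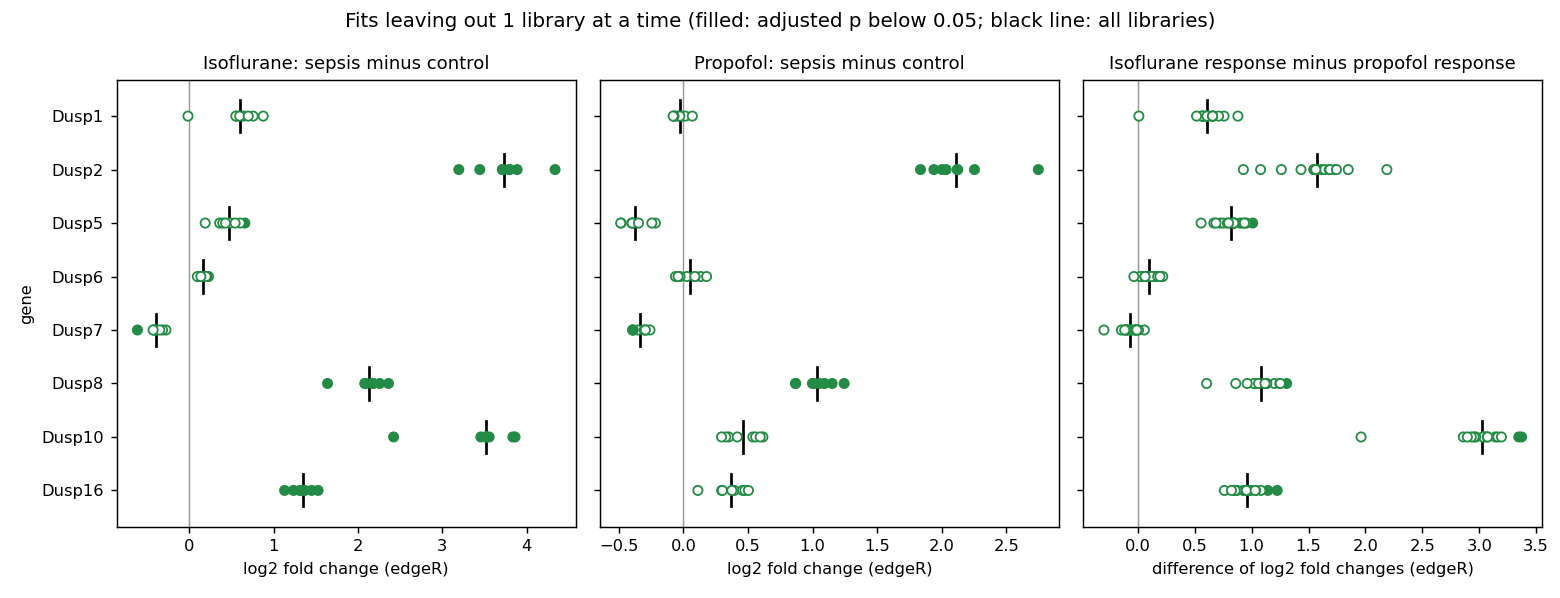
Fitted change (horizontal axes, log2 scale) of each tested phosphatase when 1 library is left out in turn, for sepsis minus control under isoflurane, under Propofol, and for the difference of both; filled points have an adjusted p below 0.05 in edgeR and the black line is the fit with all libraries. Dusp2, Dusp8, Dusp10 and Dusp16 stay filled in all 8 isoflurane fits, Dusp10 between 2.42 and 3.86, while in the right panel filled points are few.

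Between the anesthetics without sepsis, 3 of 7 tested members were higher in isoflurane than in Propofol controls and 0 were lower in edgeR, against 21.6% and 21.7% of all genes. By DESeq2 and by limma-voom 0 were lower too, and 0 members were lower at an unadjusted p below 0.05 in edgeR. Dusp6 was 2.12-fold higher (log2 difference 1.08 ± 0.14, adjusted p = 0.000159), Dusp8 was 1.88-fold higher (0.91 ± 0.19, adjusted p = 0.00290) and Dusp1 was 1.64-fold higher (0.71 ± 0.11, adjusted p = 0.000540). For these 3 genes the isoflurane and Propofol control libraries did not overlap. Here and in the other comparisons, the share of all genes without overlap was not counted. The summed hepatocyte markers given above did not overlap between the anesthetics either, with 6 of 8 called higher and 1 lower in isoflurane controls and 3 higher and 1 lower in isoflurane sepsis, and their part in these differences was not tested. In the fit of all 16 libraries, whose spread includes that of the Isoflurane-Sepsis libraries, Dusp6 was still called but Dusp1 (adjusted p = 0.125) and Dusp8 (adjusted p = 0.0643) were not. Dusp16 leaned the other way in controls, at -0.25 ± 0.12 (adjusted p = 0.107), and was called lower when library totals alone set the scale (adjusted p = 0.0180) and without library 16 (adjusted p = 0.0469). Scaling by library totals shifts the median of all genes by -0.145 on the log2 scale in this comparison and by -0.146 in the septic one. Dusp5, Dusp7 and Dusp10 were at 0.0099 ± 0.14, 0.16 ± 0.10 and 0.19 ± 0.21 and were not called. Dusp2, too scarce in controls for that fit, differed by -0.78 on log2(CPM + 0.1) with an exact two-sided permutation p = 0.257, and Dusp4 by -0.52 with p = 0.257 in the same exact test.

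In septic liver, 3 of 8 members were higher with isoflurane and 0 lower, against 10.6% and 8.66% of all genes. The 0 lower calls were likewise 0 by DESeq2 and limma-voom, with 0 at an unadjusted p below 0.05 in edgeR. With 8 members, 0 lower calls lie near the 8.66% share of all genes. Dusp6 was 2.27-fold higher (log2 difference 1.18 ± 0.14, adjusted p = 0.00433, edgeR), and the call held in each of the 8 fits that left out 1 library. Dusp8 was 3.96-fold higher (1.99 ± 0.38, adjusted p = 0.0156) and Dusp10 was 9.20-fold higher (3.20 ± 0.80, adjusted p = 0.0287). Both had no overlap between the groups. The call for Dusp8 was lost without library 9, 11 or 12 (adjusted p up to 0.0606), and that for Dusp10 without library 2, 3, 9, 11 or 12 (adjusted p up to 0.0917), and limma-voom did not call Dusp10 (log2 difference 2.51). Without library 3 the log2 difference for Dusp10 was 2.13. Dusp1 at 1.32 ± 0.42 (adjusted p = 0.0561), Dusp5 at 0.83 ± 0.30 (0.0787) and Dusp16 at 0.71 ± 0.30 (0.117) were not called. Each was called in the edgeR fit of all 16 libraries (adjusted p = 0.00667, 0.0191 and 0.0320). The spread in that fit includes that of the controls. For Dusp1 the SD was 152 CPM in Isoflurane-Sepsis against 20.3 and 11.8 CPM in isoflurane and Propofol controls. Dusp2, which rose in both septic groups, differed by 0.21 ± 0.31 (adjusted p = 0.651), and its 95% interval was -0.50 to 0.91.

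**Figure D5:**
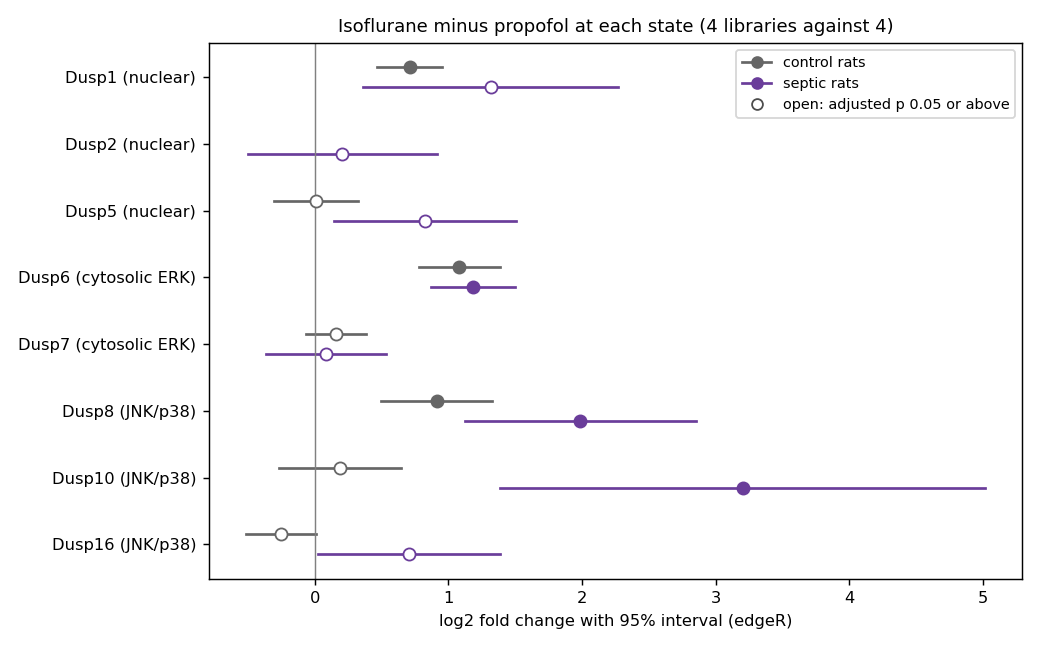
Log2 difference of isoflurane minus Propofol (horizontal axis) with its 95% interval in control rats (gray) and septic rats (purple), 4 libraries against 4; filled points have an adjusted p below 0.05 in edgeR and Dusp2 was not tested in controls. Dusp6 is at 1.08 and 1.18 in the 2 states, whereas Dusp10 is at 0.19 in controls and 3.20 in sepsis.

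Across the 16 libraries the members varied together to different degrees, which is a description over libraries that share groups, anesthetic and scaling. On log2 CPM, Pearson's r was 0.89 between Dusp8 and Dusp10, 0.82 between Dusp8 and Dusp16 and 0.75 between Dusp10 and Dusp16, the 3 members of the JNK and p38 class. Dusp2 followed Dusp16 at 0.75 and was near 0 with Dusp1 (-0.05), Dusp5 (0.04) and Dusp6 (0.0099). Dusp7 ran against the others that rose, at -0.69 with Dusp16 and -0.66 with Dusp2. Among all 10642 genes compared, those most like Dusp8 were Klf6, Jund and Mcl1 (r = 0.99, 0.98 and 0.98), and those most like Dusp2 were the cytokine genes Il1b and Ccl3 and the mitochondrial superoxide dismutase Sod2 (r = 0.95 for each). Those most like Dusp10 were Ninj1, the MAP kinase kinase kinase Map3k1 and Emp1 (0.96 each), and those most like Dusp16 were Kpna4, Lrrfip2 and Ywhag (0.96 each). Dusp6 was nearest to Lamp1, LOC687090 and Ttc14 (0.96, 0.95 and 0.95) and Dusp1 to P4ha2, Bsg and Clk3 (0.93, 0.92 and 0.92). Dusp7 was nearest to Cyp3a2, Adcy3 and Fam213a (0.90, 0.90 and 0.88) and Dusp5 to Prpf38b, Smek1 and Bag2 (0.90, 0.89 and 0.89).

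The kinases these phosphatases act on, and the kinases above and below them, were counted from lists. For all list counts, 25.7% of all genes tested were called higher and 24.4% lower under isoflurane, and 20.4% and 21.7% under Propofol, so that several of the counts lie near these shares. Of 9 tested MAP kinases 3 were higher and 1 lower in sepsis under isoflurane, and under Propofol 2 of 10 were higher and 0 lower. The JNK genes Mapk9 and Mapk8 rose under isoflurane, by 0.82 ± 0.13 and 0.27 ± 0.07 on the log2 scale (adjusted p = 0.00112 and 0.0139, edgeR), as did the atypical kinase Mapk6 (0.59 ± 0.09, adjusted p = 0.00106), and Mapk8 was at 0.023 under Propofol (adjusted p = 0.799). Under Propofol Mapk9 (0.47 ± 0.06, adjusted p = 0.000347) and Mapk6 (0.47 ± 0.09, adjusted p = 0.00198) rose, and Nlk was at 0.32 ± 0.12 (adjusted p = 0.0557). Of the MAP kinase kinases, 2 of 5 were higher and 1 lower under isoflurane (Map2k1 0.39, Map2k7 0.22 and Map2k5 -0.28) and 1 of 6 was higher and 1 lower under Propofol (Map2k7 0.29 and Map2k6 -1.29), with Map2k1 at 0.17 and Map2k5 at -0.10 (adjusted p = 0.0627 and 0.523, edgeR). Of 14 MAP kinase kinase kinases, 5 were higher and 2 lower under isoflurane and 5 higher and 3 lower under Propofol. Map3k8, an ERK-pathway activator in inflammatory signaling, rose by 1.41 and 1.498 on the log2 scale under isoflurane and Propofol, while Map3k13, a JNK-pathway activator, fell by 2.19 and 1.34. Map3k6 rose by 1.34 and 0.89, and Map3k4 fell by 0.83 and 0.88, again under isoflurane and Propofol. Of 10 MAPK-activated kinases, 4 were higher under each anesthetic, with 0 lower under isoflurane and 1 lower under Propofol. The p38 effectors Mapkapk2 and Mapkapk3 rose by 1.53 and 1.39 under isoflurane and by 1.42 and 0.67 under Propofol. Rps6ka5 rose by 0.98 under isoflurane and was at 0.32 under Propofol (adjusted p = 0.143, edgeR), and Mknk2 fell by 0.85 under Propofol and was at -0.20 under isoflurane (adjusted p = 0.491).

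Other negative regulators of the same pathways were counted beside them, to be read against the same shares of all genes (25.7% higher and 24.4% lower under isoflurane, 20.4% and 21.7% under Propofol). Of the Sprouty, Spred and related inhibitors of Ras and ERK signaling, 6 of 9 were higher and 0 lower under isoflurane and 4 of 9 higher and 0 lower under Propofol, with list medians of 0.58 and 0.71. Spry4 rose by 1.67 and 1.68, Spred2 by 1.02 and 0.83 and Spry2 by 1.22 and 0.80 on the log2 scale under isoflurane and Propofol, and Nf1 by 0.58 and 0.71. Of 18 ERK-responsive transcripts, which include some of these inhibitors, 8 were higher and 2 lower under isoflurane and 6 higher and 2 lower under Propofol, with medians of 0.73 and 0.17. Phlda1 rose by 2.00 and 1.62, Fosl2 rose by 2.13 and 1.55, and Ccnd1, which encodes cyclin D1, fell by 1.04 and 1.35 under isoflurane and Propofol. Of 9 phosphatases outside the family that act on MAP kinases, 3 were higher and 1 lower under isoflurane (Ptpn2 0.94, Ppp2cb 0.63, Ptpn7 1.12 and Ptprr -0.90) and 1 was higher and 1 lower under Propofol (Ptpn2 0.54 and Ppm1a -0.24), with Ptprr at 1.07 (adjusted p = 0.0924, edgeR). In the other comparison Ppp2cb and Ptpn7 were at 0.084 and 0.034 under Propofol (adjusted p = 0.413 and 0.941), and Ppm1a was at 0.013 under isoflurane (adjusted p = 0.885). The small atypical dual-specificity phosphatases, which lack the MAP kinase docking domain, gave 1 higher and 3 lower of 8 under isoflurane and 2 higher and 1 lower of 7 under Propofol. Dusp19 fell by 1.23 and 0.90, and Dusp23 rose by 0.57 and 0.62. Dusp12 fell by 0.48 under isoflurane and was at -0.23 under Propofol (adjusted p = 0.267, edgeR), and Dusp18 rose by 0.75 under Propofol and was at 0.71 under isoflurane (adjusted p = 0.0971). The pseudophosphatase gene Styxl1 fell by 1.19 under isoflurane (adjusted p = 0.0465, edgeR) and was at -0.87 under Propofol (adjusted p = 0.0655).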

How the data were processed

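Polyadenylated RNA of pooled rat liver was sequenced from 1 end with a stranded kit (per the labels). The authors deposited counts, whole reads per gene symbol and library, without normalization. STAR and build rn5 are named in the submitters' processing notes. Which program counted the reads, and on which annotation, is not given in the sources used here. Entries that name no gene (reads outside genes, 21.6% to 25.4%, and ambiguous reads, 1.07% to 1.35%) were left out. Groups came from the sample labels.

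Comparisons used the quasi-likelihood test of edgeR 4.0.16 (R 4.3.3) with TMM scaling and filterByExpr (minimum count 10, minimum total 15). P-values were adjusted over all genes tested by the method of Benjamini and Hochberg, and an adjusted p below 0.05 was called. SE is that of the log2 fold change, and SD is over 4 libraries. Intervals and limits on 0 reads (3 reads) cover counting or library spread only, libraries are pools, and p-values measure the spread between pools. Scarce members were tested by an exact permutation test on log2(CPM + 0.1). The scripts were tested on simulated data. Alternatives were RLE or library-total scaling, DESeq2 1.42.0, limma-voom (limma 3.58.1), no filter on scarce genes, a minimum mean CPM of 1, 1 fit of all 16 libraries, and each library left out in turn. The members and gene lists were chosen with earlier results of these data known. Named genes are the 10 members, the 3 genes of each pathway list with the smallest adjusted p in each sepsis comparison, and the 3 genes most correlated with each tested member; Ptprr under isoflurane and the values given for a listed gene in the second comparison were added after they were seen. Marker lists were used as summed CPM and as counts of markers called in the edgeR fits. Motifs were searched in 1 RefSeq promoter window per member, the first listed for its symbol, and the shares cover all windows. No paired analysis was possible because the groups share no replicate numbers.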

Additional observations from a re-analysis of the deposited data

How the results depend on the processing

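The 4 members called higher in sepsis under isoflurane and the 2 under Propofol were called with each scaling, in DESeq2 and in limma-voom. They were also called with no filter on scarce genes, in 1 fit of all 16 libraries and with any library left out. Without library 1, Dusp5 was added under isoflurane. At a mean CPM of at least 1 Dusp2 was not tested under isoflurane and the count there was 3. Dusp2 is in both counts and passed the limit on low counts through its septic libraries alone, so its calls add nothing to them. Fits that left out 1 library called 0 to 1 member lower under isoflurane, 0 to 1 lower under Propofol, 0 to 4 higher in the interaction, 0 to 1 lower in isoflurane against Propofol controls and 1 to 6 higher with isoflurane in sepsis. In 1 fit of all 16 libraries, 0 members were called lower under Propofol, 1 higher in isoflurane than in Propofol controls and 6 higher with isoflurane in sepsis. DESeq2 called 1 in the interaction (Dusp10, adjusted p = 0.0199) and 5 higher with isoflurane in sepsis. With library totals alone, 1 member (Dusp16) was called lower in isoflurane than in Propofol controls. The shares of all genes called were not counted in these alternative fits. Whether the changed counts of members only follow more or fewer calls over all genes was therefore not tested. Signs turned for members that were not called. With library totals alone the log2 value was -0.0056 for Dusp6 in sepsis under Propofol, -0.13 for Dusp5 between controls and -0.062 for Dusp7 between septic groups. With 1 library left out, the ranges were -0.017 to 0.88 for Dusp1 under isoflurane, -0.079 to 0.069 for Dusp1 and -0.061 to 0.18 for Dusp6 under Propofol, -0.034 to 0.22 for Dusp6 and -0.30 to 0.058 for Dusp7 in the interaction, -0.12 to 0.14 for Dusp5 between controls, and -0.11 to 0.37 for Dusp2 and -0.14 to 0.21 for Dusp7 between septic groups. The cause of these changes was not tested. The depth limits Dusp4 and Dusp9, with 27 and 2 reads in all. No paired analysis was possible because the groups share no replicate numbers.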

Other observations

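Genes that glucocorticoids are known to induce, as they do Dusp1, were counted as a list of 11. In sepsis 4 were higher and 2 lower under isoflurane, and 7 were higher and 1 lower under Propofol, with list medians of 0.14 and 0.88 on the log2 scale. Over all genes tested, 25.7% were called higher and 24.4% lower under isoflurane and 20.4% and 21.7% under Propofol, so the isoflurane counts lie near those shares. Lcn2, an acute-phase protein that binds bacterial siderophores, rose by 3.20 ± 0.19 under isoflurane (adjusted p = 1.8e-05, edgeR) and by 2.24 ± 0.30 under Propofol (adjusted p = 0.000421). Tsc22d3, which encodes the glucocorticoid-induced leucine zipper protein, fell by 1.17 ± 0.14 under isoflurane (adjusted p = 0.000324) and by 0.46 ± 0.13 under Propofol (adjusted p = 0.0211). Per1, a clock gene, rose by 0.48 ± 0.08 and 0.61 ± 0.18 (adjusted p = 0.00137 and 0.0220). The metallothionein genes Mt1a and Mt2A rose by 0.93 ± 0.12 and 0.88 ± 0.12 under Propofol (adjusted p = 0.000294 and 0.000373, edgeR) and by 0.51 ± 0.11 and 0.43 ± 0.08 under isoflurane (adjusted p = 0.00598 and 0.00206).

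Of 5 genes for proteins that bind AU-rich elements and control mRNA decay downstream of p38, 3 were higher and 0 lower in sepsis under isoflurane and 3 higher and 1 lower under Propofol, with medians of 1.06 and 0.24, to be read against the same shares (25.7% and 24.4% under isoflurane, 20.4% and 21.7% under Propofol) and the small size of the list. Elavl1, an mRNA-stabilizing protein, rose by 1.06 ± 0.16 and 0.36 ± 0.09 (adjusted p = 0.000933 and 0.00780, edgeR). Zfp36l1, which promotes decay, rose by 1.82 ± 0.36 and 0.42 ± 0.12 (adjusted p = 0.00338 and 0.0223). Zfp36, the gene of tristetraprolin, fell by 0.50 ± 0.12 under Propofol (adjusted p = 0.00820) and was at 0.059 ± 0.37 under isoflurane (adjusted p = 0.904). Khsrp rose by 0.37 ± 0.06 and 0.24 ± 0.07 (adjusted p = 0.00117 and 0.0244).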
